A study of Mus musculus with 6 samples.

Results

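Potassium, sodium and chloride channels were examined in the mouse prostate as the genes whose symbols follow the naming of these families: Kcn (potassium channels and their auxiliary subunits), Scn and Scnn1 (sodium channels), Clcn, Clca, Ano, Cftr and Best (chloride channels and relatives). The rule found 138 of the 34745 genes of the expression table, and it reads symbols alone. Genes named in another form, such as Scn2a1, were not matched. RNA was sequenced from prostate tissue of male C57BL/6 mice, 3 in the control group (CON group) and 3 in the testosterone and oestradiol group (T + E2 group). Which lobes were taken for RNA is not given in the sources used here. Over 12 weeks the T + E2 mice carried slow-release pellets with both hormones under the skin, 1 at a time and renewed monthly, and the CON mice had the skin opened and closed again with no pellet. The effects of testosterone and of oestradiol cannot be told apart because every treated mouse received both. The study used this treatment to model enlargement of the prostate that obstructs urine flow.

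Ion channels let ions pass the membrane down their gradients. In glandular epithelium, chloride leaving the cell through apical chloride channels draws sodium and water into the lumen, potassium channels hold the membrane voltage that drives this exit, and the epithelial sodium channel (ENaC) takes sodium, and with it water, back out of the lumen. In smooth muscle, nerves and glia the same families set excitability, with potassium channels opposing contraction and firing. Both kinds of tissue occur in the prostate, whose epithelium makes a fluid rich in potassium and low in chloride compared with plasma.

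Each library held 14816146 to 16555549 counted reads, of which 0.171 to 0.214% fell on channel genes. Prostate luminal markers (Pbsn, Tgm4 and 5 others) summed to 36900 to 50520 CPM, read counts scaled to a common library size, in CON mice and 12150 to 14960 CPM in T + E2 mice, and were thus present in every library. The CON replicate 2 library stood apart, with 10290 CPM of seminal vesicle and epididymis markers against 3.97 and 0.629 CPM in the other CON mice. T + E2 replicate 2 was also high, with 647.5 CPM against 14.3 and 10.7 CPM in the other T + E2 mice. Because tissue was sequenced without separating its cells, fewer cells of a type and less RNA per cell cannot be told apart for any gene below.

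Of the 138 channel genes, 86 had enough reads to be tested, 52 did not, and 9 of these had no read in any mouse. By edgeR's quasi-likelihood test, 26 of the 86 (30.2%) passed an adjusted p of 0.05, beside 19.6% of all 15580 genes tested. Channel genes that passed were higher in the T + E2 group in 16 cases, beside a background of 10.4%, and lower in 10, beside 9.25%. Differentially expressed genes (DEGs), which also needed an absolute log2 fold change over 1, numbered 15 (17.4% of the tested channels, against 7.64% of all genes), 9 upregulated and 6 downregulated, where 4.27% and 3.38% of all genes were so. Ano4, Ano7 and Kcnip4 reached the read threshold in 1 group only, so that a difference was built into their inclusion. Without them 23 of 83 channels (27.7%) passed and 12 (14.5%) were DEGs. The median log2 fold change of the tested channels was -0.12, beside -0.0021 over all genes. The count of lowered channels was the least stable. It was 6 without CON replicate 2, CON replicate 3 or T + E2 replicate 2 and 5 without T + E2 replicate 1. The total that passed was 17 without CON replicate 3 or T + E2 replicate 2. Of all genes, 12.2% passed without CON replicate 3 and 12.5% without T + E2 replicate 2.

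**Figure D1:**
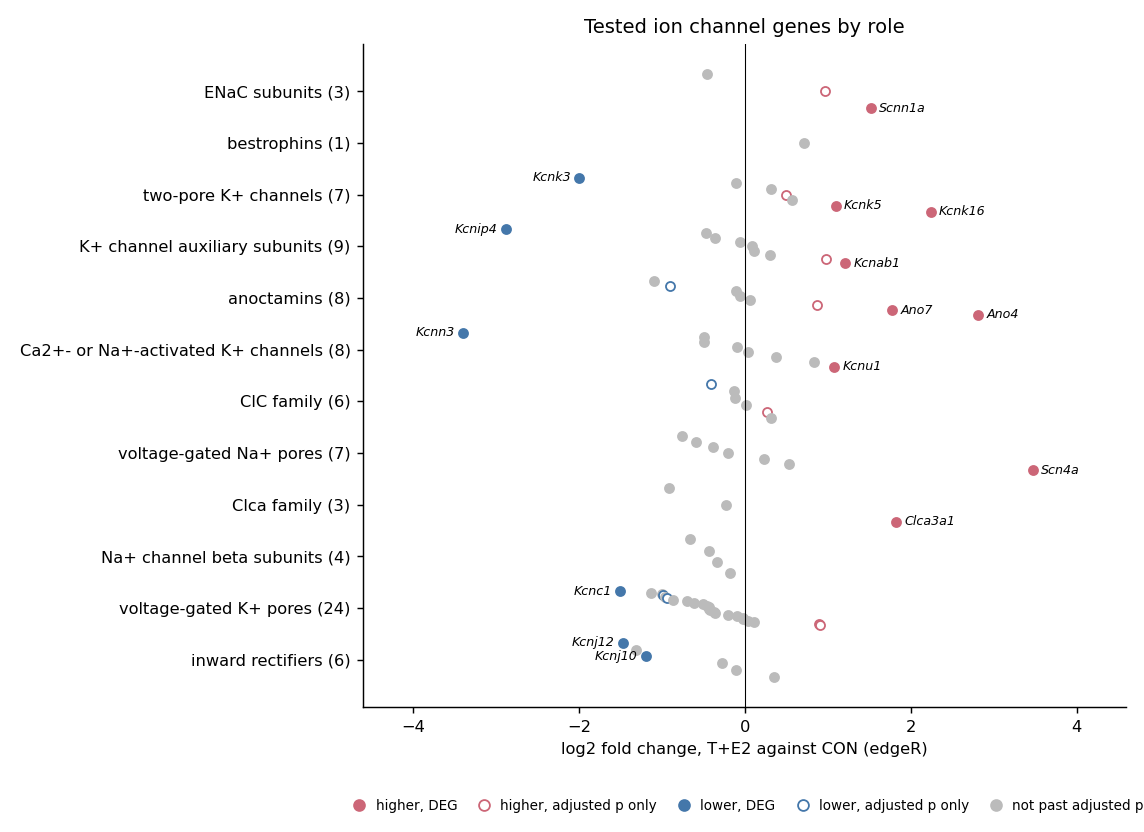
Log2 fold change of each of the 86 tested channel genes, T + E2 against CON (x axis), grouped by role (y axis, number tested in parentheses), with filled coloured points for DEGs, open points for genes past the adjusted p alone and grey points for the rest. Scn4a lies farthest to the right at 3.47 and Kcnn3 farthest to the left at -3.40.

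The channel transcripts were dominated by few genes. On the FPKM scale, which is per transcript length, 38 channel genes had a mean of at least 1 and 7 of at least 10. The most abundant, Kcnk1, a two-pore-domain potassium channel, took 28.9% of the summed channel FPKM of CON mice and 37.3% of that of T + E2 mice. The 10 most abundant genes held 76.2 to 77.8% of the sum. In CON mice the mean levels ran from Kcnk1 (112.4 FPKM) through Kcnk3 (71.2), Ano6 (32.1), Ano1 (24.9) and Clcn4 (15.1) to Ano10 (14.5), and of these neighbours only Clcn4 and Ano10 overlapped between mice. In T + E2 mice Kcnk1 (154.7 FPKM) was followed by Ano1 (44.3), Ano6 (29.1), Clcn4 (17.8), Kcnk3 (17.3), Scnn1b (15.1) and Ano10 (14.7), and from Clcn4 on each gene overlapped with the next. Kcnk3 thus ranked behind Kcnk1 alone in CON mice. In T + E2 mice it also ranked behind Ano1 and Ano6, and its range overlapped with that of Clcn4. The summed FPKM of all 138 genes was 390.6 ± 28.05 in CON mice and 415.1 ± 24.67 in T + E2 mice (SD, n = 3 each), a ratio of 1.06 that did not exceed the spread between mice (exact two-sided permutation test, p = 0.4, with 0.1 the smallest value 3 against 3 mice allow). Without Kcnk1 the ratio was 0.936 (exact permutation test, p = 0.4).

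**Figure D2:**
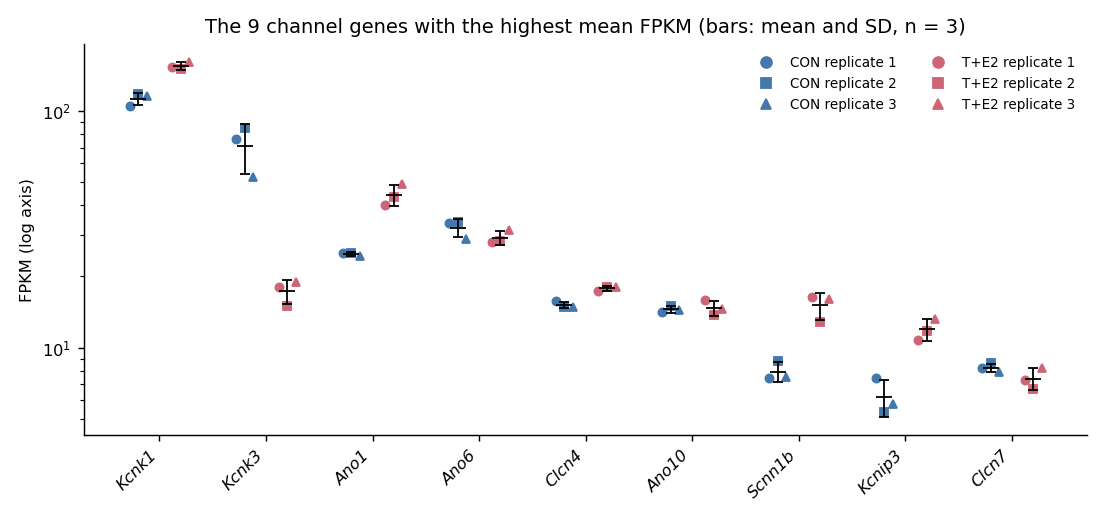
Level in FPKM (log axis) of the 9 most abundant channel genes in each of the 6 mice, with CON mice in blue, T + E2 mice in red and bars for the mean and SD of each group. Kcnk1 lies above all others in every mouse, and Kcnk3 falls from a mean of 71.2 to 17.3 FPKM.

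Two-pore-domain potassium channels leak potassium at rest and so set the resting voltage of many cells. Of 14 members, 7 were tested, 3 rose, of which Kcnk16 and Kcnk5 were DEGs, and Kcnk3 fell. Kcnk3, a background channel closed by extracellular acid, stood at 323, 357 and 228 CPM in the CON mice and at 81.6, 65.1 and 80.7 CPM in the T + E2 mice. The lowest CON mouse was well above the highest T + E2 mouse, and the log2 fold change was -2.0 (SE 0.18, edgeR adjusted p = 0.00027). Kcnk1 moved the other way, from 236, 264 and 267 CPM to 369, 347 and 367 CPM, again with no overlap between the groups. Its log2 fold change was 0.50 (SE 0.092, edgeR adjusted p = 0.00793). The ratio of Kcnk1 to Kcnk3 on the FPKM scale was 1.38, 1.38 and 2.19 in CON mice and 8.48, 10 and 8.53 in T + E2 mice. The pair together came to 183.6 ± 17.5 FPKM in CON mice and 172.0 ± 7.76 FPKM in T + E2 mice (SD, n = 3).

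Kcnk5 and Kcnk16 both encode two-pore channels opened by alkaline pH, Kcnk5 being known from kidney tubules and Kcnk16 from pancreatic beta cells. They lie next to each other on chromosome 14 (20140058 to 20181782 and 20262756 to 20269162), 80974 bases apart. Kcnk5 measured 6.49, 7.03 and 5.97 CPM in CON mice and 12.2, 13.3 and 16.3 CPM in T + E2 mice, a log2 fold change of 1.10 (SE 0.16, edgeR adjusted p = 0.00271). Kcnk16 measured 0.662, 0.46 and 0.503 CPM in CON mice and 3.53, 2.25 and 2.0 CPM in T + E2 mice (log2 fold change 2.24, SE 0.34, edgeR adjusted p = 0.00334). Neither gene overlapped between the groups, though Kcnk16 stayed a low transcript throughout.

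The largest rise was that of Scn4a, which encodes the pore of the voltage-gated sodium channel of skeletal muscle. It measured 2.98, 2.56 and 2.96 CPM in CON mice and 38.1, 22.5 and 34.0 CPM in T + E2 mice, with a log2 fold change of 3.47 (SE 0.22, edgeR adjusted p = 5.83e-05). Every treated mouse stood far above every control. Of 7 skeletal muscle markers tested, 0 passed by edgeR or DESeq2 and 0 had an unadjusted p under 0.05. Their sum overlapped between the groups, at 74.8 to 317.5 CPM in CON mice and 96.0 to 275.3 CPM in T + E2 mice, but single markers varied widely between mice, and Actn3 had a log2 fold change of 0.87 (SE 0.43, edgeR adjusted p = 0.191). The part of skeletal muscle in the Scn4a result was not tested. The skeletal muscle chloride channel gene Clcn1 had at most 3 counts in any mouse. Scn4a made up 6.72 ± 1.99% of the summed FPKM of the voltage-gated sodium pores in CON mice and 37.6 ± 12.4% in T + E2 mice (SD, n = 3). Of the 7 pores tested it was the only one that passed. Scn7a, a sodium-sensing relative and the most abundant pore, was at 24.9 to 41.1 CPM in CON mice and 39.1 to 66.1 CPM in T + E2 mice (log2 fold change 0.54, edgeR adjusted p = 0.151). None of the 4 sodium channel beta subunits, which modulate the pores, passed by edgeR or DESeq2, and 1, Scn2b, had an unadjusted p under 0.05 (log2 fold change -0.66, edgeR adjusted p = 0.0512).

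Promoter sequence is shown for Scn4a, for Ano1, the most abundant upregulated chloride channel, and for Kcnn3, the most strongly lowered channel, because the treatment acts through hormone receptors that bind DNA. Each run holds the 250 bases before the RefSeq start on build GRCm38.p6, 5′ to 3′ on the gene's strand, in lower case, with capitals marking the oestrogen response element arm GGTCA or its reverse complement TGACC. The Scn4a run is chr11:106349391-106349640 (minus strand), with TGACC beginning 142 and 84 bases before the start, which lies inside the span of the deposited gene. The Ano1 run is chr7:144738574-144738823 (minus strand), with TGACC 72 and 64 bases before the start, which again lies inside the deposited gene (144588549 to 144751974), and the Kcnn3 run, chr3:89519914-89520163 (plus strand), holds none.
Scn4a: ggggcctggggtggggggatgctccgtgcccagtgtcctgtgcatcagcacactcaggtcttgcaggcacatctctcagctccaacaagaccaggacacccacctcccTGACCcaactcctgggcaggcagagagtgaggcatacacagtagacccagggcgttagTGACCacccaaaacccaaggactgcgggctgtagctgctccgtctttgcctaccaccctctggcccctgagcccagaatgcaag
Ano1: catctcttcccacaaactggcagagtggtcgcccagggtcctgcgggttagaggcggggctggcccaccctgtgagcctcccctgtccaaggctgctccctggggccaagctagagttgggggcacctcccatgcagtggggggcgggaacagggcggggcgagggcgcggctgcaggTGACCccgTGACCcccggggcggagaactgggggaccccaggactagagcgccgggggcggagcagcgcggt
Kcnn3: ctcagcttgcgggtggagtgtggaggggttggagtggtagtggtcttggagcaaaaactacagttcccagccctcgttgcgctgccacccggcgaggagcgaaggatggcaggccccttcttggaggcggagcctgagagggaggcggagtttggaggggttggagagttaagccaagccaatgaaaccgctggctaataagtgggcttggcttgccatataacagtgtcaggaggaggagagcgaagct
Promoters of 300 bases, with 50 bases after the start, were at hand for 100 of the 138 symbols (133 promoters). GGTCA on either strand occurred in 8 of 17 promoters of raised channels (47.1%), in 3 of 9 of lowered channels (33.3%) and in 40.5% of all 32851 promoters. The androgen element arm AGAACA occurred in 2 of 17 (11.8%), 2 of 9 (22.2%) and 19.0% of these. The full elements, each arm followed after any 3 bases by its reverse complement, contain these arms and were in no channel promoter, and in 0.00913% (androgen) and 0.07% (oestrogen) of all. These matches describe letters in the windows and do not show binding, which was not tested.

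ENaC, built from the products of Scnn1a, Scnn1b and Scnn1g, reabsorbs sodium in kidney, lung and gland ducts. Scnn1a measured 22.1, 34.4 and 20.3 CPM in CON mice and 67.5, 56.6 and 96.2 CPM in T + E2 mice (log2 fold change 1.52, SE 0.25, edgeR adjusted p = 0.00471). Scnn1b measured 28.7, 33.8 and 29.8 CPM and then 67.8, 50.9 and 62.2 CPM, a log2 fold change of 0.97 (SE 0.13, edgeR adjusted p = 0.00174), just under the DEG limit. Both genes were higher in every T + E2 mouse than in any CON mouse. Scnn1g, 96563 bases from Scnn1b on chromosome 7, did not pass, with 1.79, 4.14 and 3.96 CPM against 2.63, 2.31 and 2.27 CPM (log2 fold change -0.46, edgeR adjusted p = 0.365). The 3 subunits together rose from 11.4 ± 1.78 FPKM to 22.4 ± 3.49 FPKM, of which Scnn1g was 9.66% in CON mice and 3.58% in T + E2 mice. Urothelial markers moved in the same direction: 3 of 3 tested (Upk1a, Upk1b and Upk2) were raised, beside 10.4% of all genes tested. The list summed to 421.8 to 642.1 CPM in CON and 1374 to 1700 CPM in T + E2 mice. Most of that sum was Upk1a, with a mean of 373.9 CPM in CON and 1306 CPM in T + E2 mice. Upk2 had means of only 0.781 and 3.61 CPM. Upk3a was not tested, with no count in CON mice and 5, 99 and 3 counts in T + E2 mice. The part of these markers in the ENaC result was not tested.

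Genes that act on ENaC were read from a list of 13, all tested, of which 6 rose and 1 fell. Of all genes tested, 10.4% rose and 9.25% fell. Tmprss4, a membrane serine protease that can activate ENaC, was the DEG among the raised, from 5.38 ± 1.08 CPM to 24.7 ± 7.93 CPM (log2 fold change 2.20, edgeR adjusted p = 0.000916). The protease Furin, the kinase Sgk1, the protease inhibitor Spint2, the glucocorticoid target Tsc22d3 and Nedd4l, a ubiquitin ligase that removes ENaC from the membrane, rose by smaller amounts, with log2 fold changes of 0.51 to 0.90. Nr3c2, the mineralocorticoid receptor through which aldosterone acts on ENaC, fell from 23.2 ± 7.63 CPM to 9.97 ± 4.0 CPM (log2 fold change -1.22, edgeR adjusted p = 0.0349). The groups overlapped for Nr3c2, with T + E2 replicate 3 at 14.55 CPM and CON replicate 3 at 14.52 CPM. The list thus held genes that raise and genes that lower channel activity, both among those that rose.

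Anoctamins are calcium-activated chloride channels and lipid scramblases. Of 10 members, 8 were tested, 3 rose and 1 fell. Ano1, the main calcium-activated chloride channel of secretory epithelia and pacemaker cells, measured 195, 192 and 193 CPM in CON mice and 331, 345 and 383 CPM in T + E2 mice. The CON mice lay within a few CPM of one another, and the log2 fold change was 0.87 (SE 0.092, edgeR adjusted p = 0.000638). Ano1 went from 31.5 to 46.6% of the summed anoctamin FPKM. On the FPKM scale its mean passed that of Ano6, a lipid scramblase, which was 32.1 FPKM in CON and 29.1 FPKM in T + E2 mice. In CPM, where Ano1 was above Ano6 in both groups, Ano6 stood at 164 to 187 CPM in CON and 160 to 175 CPM in T + E2 mice (log2 fold change -0.10, edgeR adjusted p = 0.458). Ano4 and Ano7 were low in all mice and reached the read threshold in the T + E2 group only. Ano4 had 2, 6 and 3 counts in CON mice and 27, 30 and 22 in T + E2 mice (log2 fold change 2.81, SE 0.41, edgeR adjusted p = 0.00275). Ano7, whose human counterpart is known for its prostate expression, rose from 0.265 to 0.46 CPM in CON mice to 0.667 to 1.64 CPM in T + E2 mice (log2 fold change 1.78, edgeR adjusted p = 0.0297). The Ano7 call held in only 1 of 6 fits that left out a mouse, that without T + E2 replicate 3, and was also lost with DESeq2. Ano9, a further scramblase, fell by 0.91 on the log2 scale (edgeR adjusted p = 0.0215), and that call was lost without CON replicate 3 or any 1 T + E2 mouse.

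Among the other chloride families, Cftr, the cyclic-AMP-gated chloride channel, was too low to test, with 0, 1 and 1 counts in CON mice and 12, 11 and 2 in T + E2 mice. Clca proteins are secreted modulators of chloride channels, coded by a cluster on chromosome 3. Clca3a1 measured 2.19, 5.65 and 2.14 CPM in CON mice and 8.99, 15.2 and 11 CPM in T + E2 mice, a log2 fold change of 1.82 (SE 0.39, edgeR adjusted p = 0.0156). The groups did not overlap, but the call was lost without CON replicate 3 or T + E2 replicate 2, with an adjusted p of at most 0.0609. Its neighbour Clca3a2, 35582 bases away, had 2.43 to 3.91 CPM in CON mice and 0.553 to 2.86 CPM in T + E2 mice (log2 fold change -0.91, edgeR adjusted p = 0.237). The pair is shown because their reads can be mixed up: the coding sequences are 97.1% identical over 2706 bases, with 7 stretches of at least 100 identical bases. In coding bases 121 to 270 of the GENCODE M21 transcripts (GRCm38), capitals mark the 4 bases that differ.
Clca3a1: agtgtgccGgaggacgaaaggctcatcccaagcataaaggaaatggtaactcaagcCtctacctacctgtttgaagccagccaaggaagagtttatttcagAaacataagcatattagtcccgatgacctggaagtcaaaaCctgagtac
Clca3a2: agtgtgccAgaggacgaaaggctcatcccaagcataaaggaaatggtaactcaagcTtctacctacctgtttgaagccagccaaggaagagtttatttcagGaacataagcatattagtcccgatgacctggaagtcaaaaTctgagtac
How counting split such reads is not given, so the value of each gene is uncertain. Their summed level was 6.38 ± 1.58 CPM in CON mice and 13.3 ± 4.31 CPM in T + E2 mice (SD, n = 3). Clca1, a goblet cell product, did not pass (log2 fold change -0.23, edgeR adjusted p = 0.768), and Clca2 had 7, 0 and 4 counts in CON and 0, 7 and 1 in T + E2 mice.

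ClC proteins are chloride channels of the plasma membrane or chloride-proton exchangers of endosomes and lysosomes. Of 9 members, 6 were tested, and their summed level was 32.9 ± 1.07 FPKM in CON mice and 34.8 ± 1.16 FPKM in T + E2 mice. The endosomal exchanger Clcn4 rose slightly, from 66.4 to 70.5 CPM to 82.0 to 83.2 CPM (log2 fold change 0.27, edgeR adjusted p = 0.0491), a call that no fit without 1 mouse kept. Clcn6, of late endosomes, fell by 0.41 on the log2 scale (edgeR adjusted p = 0.0361). Of the fits without 1 mouse, only that without T + E2 replicate 3 kept the Clcn6 call, which was also lost with DESeq2. Clcn3, a vesicular exchanger, had 108 to 121 CPM in CON and 130 to 149 CPM in T + E2 mice and narrowly missed the threshold (log2 fold change 0.31, edgeR adjusted p = 0.0524). Clcn2, a plasma membrane channel, did not pass (-0.13, edgeR adjusted p = 0.541), nor did Best1, a calcium-activated chloride channel and the 1 bestrophin tested (0.72, edgeR adjusted p = 0.117).

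**Figure D3:**
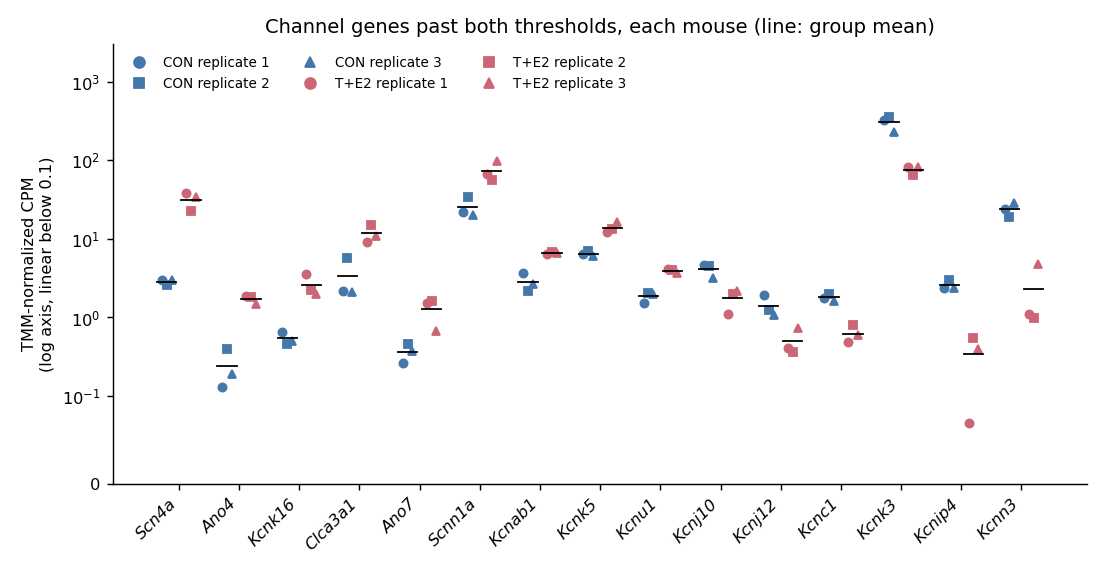
TMM-normalized CPM (log axis, linear below 0.1) of the 15 channel DEGs in each mouse, with CON mice in blue, T + E2 mice in red, symbols for the replicate number and a line at each group mean. The 9 upregulated genes stand to the left and the 6 downregulated to the right. The groups do not overlap in any of them, which is partly built in because these genes were picked for their difference in the same mice.

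The largest fall was that of Kcnn3, a small-conductance calcium-activated potassium channel of neurons and smooth muscle. It measured 24.1, 18.8 and 28.7 CPM in CON mice and 1.11, 0.974 and 4.74 CPM in T + E2 mice. T + E2 replicate 3 was the highest of its group and still far below any CON mouse. The log2 fold change was -3.40 (SE 0.51, edgeR adjusted p = 0.0032), and -4.51 without that mouse. Kcnn3 fell from 20.2 to 1.97% of the summed FPKM of the calcium- or sodium-activated potassium channels. All 8 of that family were tested, and Kcnu1, the pH-sensitive potassium channel known from sperm, was the other DEG, at 1.52, 2.04 and 2.01 CPM in CON mice and 4.08, 4.02 and 3.67 CPM in T + E2 mice (log2 fold change 1.07, SE 0.22, edgeR adjusted p = 0.0128). Kcnma1, the large-conductance channel that relaxes smooth muscle, and its beta subunit gene Kcnmb1 did not pass. Kcnma1 ranged over 37.5 to 47.6 CPM in CON and 38.1 to 45.9 CPM in T + E2 mice (log2 fold change 0.04, SE 0.12, edgeR adjusted p = 0.853), and Kcnmb1 had a log2 fold change of -0.05 (SE 0.28, edgeR adjusted p = 0.912). Smooth muscle markers summed to 4260 to 5279 CPM in CON and 3740 to 4080 CPM in T + E2 mice. Of these 8 markers 3 were lowered, beside 9.25% of all genes, and none of the 3 was a DEG. Kcnn4, an intermediate-conductance channel of epithelia and blood cells, did not pass (0.38, edgeR adjusted p = 0.381).

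Voltage-gated potassium pores, which repolarise excitable cells, were the largest family, with 40 members, 24 tested, 2 raised and 3 lowered. Their median log2 fold change was -0.43, and their summed level was 28.9 ± 2.54 FPKM in CON mice and 22.9 ± 3.08 FPKM in T + E2 mice. Kcnc1, of fast-firing neurons, was the DEG, at 1.63 to 1.97 CPM in CON and 0.484 to 0.792 CPM in T + E2 mice (log2 fold change -1.5, SE 0.30, edgeR adjusted p = 0.011), a call lost with limma on log2(FPKM + 0.1) (adjusted p = 0.079) and on log2(FPKM + 1) (adjusted p = 0.101). The Kcnq genes, slow potassium channels, went both ways. Kcnq5 measured 4.44, 5.72 and 5.09 CPM in CON mice and 2.01, 2.92 and 2.74 CPM in T + E2 mice (log2 fold change -0.99, SE 0.23, edgeR adjusted p = 0.0199). Kcnq1, which serves epithelia and heart, rose by 0.90 (edgeR adjusted p = 0.0484) and Kcnq3 by 0.91 (edgeR adjusted p = 0.0447). The Kcnq1 call was kept only without CON replicate 2, the Kcnq3 call only without CON replicate 1 or T + E2 replicate 1, and the Kcnq5 call was lost without CON replicate 2, CON replicate 3 or T + E2 replicate 1. Kcnh2, the most abundant pore, did not pass (-0.20, edgeR adjusted p = 0.377), nor did Kcne3, an epithelial partner of Kcnq1 (-0.36, edgeR adjusted p = 0.661).

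Auxiliary subunits change the gating or traffic of the pores. Of 15 members, 9 were tested, and their summed level rose from 13.9 ± 0.776 FPKM to 19.6 ± 2.09 FPKM. Kcnip3, a calcium-binding partner of A-type potassium channels that also acts as a transcriptional repressor, measured 29.9, 21.2 and 23.8 CPM in CON mice and 46.1, 48.5 and 53.4 CPM in T + E2 mice (log2 fold change 0.98, SE 0.14, edgeR adjusted p = 0.00234). Its relative Kcnip4 went the other way, from 2.38, 3.02 and 2.39 CPM to 0.0692, 0.548 and 0.4 CPM (log2 fold change -2.88, SE 0.48, edgeR adjusted p = 0.00491). Kcnab1, a cytoplasmic beta subunit, rose from 3.71, 2.17 and 2.7 CPM to 6.43, 6.76 and 6.67 CPM (log2 fold change 1.21, SE 0.23, edgeR adjusted p = 0.00921). Kcnip4 reached the read threshold in the CON group only, so that a difference was built into its inclusion. With that limit, the related genes Kcnip3 and Kcnip4 moved in opposite directions.

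Inward rectifiers pass potassium more easily into the cell and hold the resting voltage. Of 15 members, 6 were tested and 2 fell. Kcnj10, a channel of glia, measured 4.64, 4.47 and 3.14 CPM in CON mice and 1.11, 2.01 and 2.2 CPM in T + E2 mice (log2 fold change -1.19, SE 0.31, edgeR adjusted p = 0.0308). Kcnj12, of heart and muscle, measured 1.92, 1.25 and 1.07 CPM and then 0.415, 0.365 and 0.734 CPM (log2 fold change -1.47, SE 0.40, edgeR adjusted p = 0.0373). Of the fits without 1 mouse, the Kcnj12 call was kept only without T + E2 replicate 3, and the Kcnj10 call only without CON replicate 3 or T + E2 replicate 3. The Kcnj12 call was also lost with DESeq2. Kcnj8, the pore of the vascular ATP-sensitive potassium channel, did not pass (0.35, edgeR adjusted p = 0.136).

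Markers of nerve and glia moved in the direction of the lowered channels of excitable cells. Of the 9 markers, all tested, 6 were downregulated DEGs (Tubb3, Elavl4, Prph, Uchl1 and Sox10 among them), beside 3.38% of all genes. The list summed to 339.8 to 442.6 CPM in CON mice and 97.2 to 227.1 CPM in T + E2 mice. None of these markers was at 0. Their part in the falls of Kcnn3, Kcnip4, Kcnc1 and Kcnj10 was not tested.

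**Figure D4:**
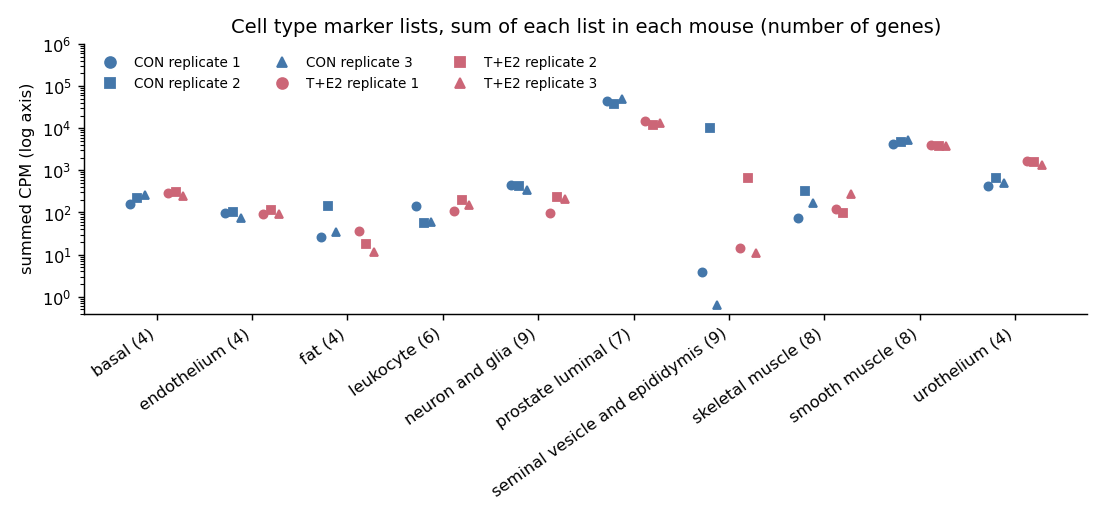
Summed CPM (log axis) of each cell type marker list in each mouse, with CON mice in blue, T + E2 mice in red and the number of genes in parentheses. Neuron and glia markers are lower and urothelial markers higher in all 3 T + E2 mice, skeletal muscle markers overlap, and seminal vesicle markers reach 10290 CPM in CON replicate 2.

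Partners beyond the ENaC list were read in the same way. Of 27 tested genes for chloride and potassium supply and other chloride channels, 3 rose and 8 fell, beside 10.4% and 9.25% of all genes. Lrrc8e, a subunit of the volume-regulated anion channel, rose from 3.05 ± 0.146 CPM to 15.8 ± 1.85 CPM (log2 fold change 2.37, edgeR adjusted p = 6.4e-05). Clic5, an intracellular chloride channel protein bound to the cell cortex, fell from 88.6 ± 10.7 CPM to 14.2 ± 1.14 CPM (-2.64, edgeR adjusted p = 1.5e-05), with smaller falls of the anion exchanger Slc26a6 (-1.02) and of Ttyh1 (-1.29). Of 8 tested potassium channel partners, 1 rose and 4 fell, the 4 being DEGs, where 3.38% of all genes were downregulated DEGs. These 4 partners were Lrrc52, an auxiliary subunit of the Kcnu1 channel (-3.02, edgeR adjusted p = 0.00116), the sulphonylurea receptor Abcc8 (-2.18), the pacemaker channel Hcn3 (-1.36) and Dpp6, a partner of A-type channels (-1.02). Abcc8 had 15, 12 and 11 counts in CON mice and 3, 2 and 3 in T + E2 mice. It reached the read threshold in the CON group only, so that a difference was built into its inclusion. Against the floor of 3 counts its fall was at least 4.19-fold. Kcnu1 and Lrrc52 thus moved in opposite directions. Of 6 excitable-cell calcium channel genes, Cacna1g alone passed, falling by 0.89 on the log2 scale, where 9.25% of all genes fell.

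**Figure D5:**
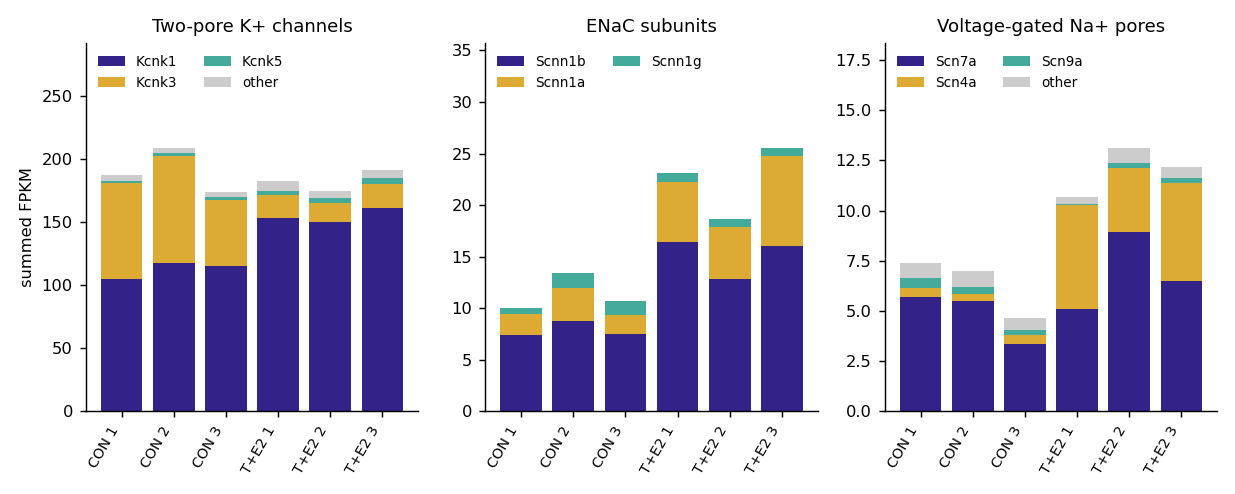
Summed FPKM (y axis, from 0) of the two-pore potassium channels, the ENaC subunits and the voltage-gated sodium pores in each of the 6 mice (x axis), as stacked contributions of their members. The Kcnk3 share of the two-pore-domain channels falls from 37.2% in the CON group to 9.45% in the T + E2 group, and ENaC transcripts rise from 11.4 to 22.4 FPKM.

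The remaining members were scarce. The 52 untested genes had at most 18 counts in any mouse, and 21 of them never more than 3. At this depth 3 counts correspond to 0.183 to 0.208 CPM, and 14 members had at most 3 counts in every mouse of 1 group only. Among these, Scn11a, a sodium channel of pain-sensing neurons, had 8, 5 and 3 counts in CON mice and none in T + E2 mice, and Kcnk7 had 2, 2 and 0 counts in CON and 10, 2 and 9 in T + E2 mice. The others besides Cftr were Ano2, Kcne1, Kcng3, Kcnh3, Kcnh4, Kcnj11, Kcnj4, Kcnj5, Kcnk18, Kcns1 and Kcnv1. With no filter on low counts, 43 more channel genes entered the edgeR fit, and 2 passed, Scn11a (adjusted p = 0.0327) and Cftr (adjusted p = 0.0446). In that fit 13.2% of all genes passed.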

How the data were processed

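The authors sequenced paired-end TruSeq libraries, 1 per mouse, and deposited whole-number counts per gene without normalization and FPKM values made from these counts per gene length and library total. Bowtie2, HTSeq and TopHat are named in the submitters' processing notes without versions. The build, annotation and use of strand are not given in the sources used here, so reads of overlapping genes on opposite strands cannot be told apart. Symbols of all 138 members occur in GENCODE M21 (GRCm38), 94 with the same start and end as in the deposited table, whose coordinates are printed.

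The groups were compared on these counts with edgeR 4.0.16 in R 4.3.3 (filterByExpr with a minimum count of 10 and a minimum total of 15, TMM scaling, glmQLFit and glmQLFTest, no covariate), with Benjamini-Hochberg adjustment over all 15580 genes tested. The study used DESeq2, which was run as an alternative. The script was tested on simulated data. A gene passed at an adjusted p under 0.05, and a DEG also had an absolute log2 fold change over 1. CPM are TMM-normalized. A limit of 3 counts per library, covering counting error only, marks the detection floor. Genes named were all channel DEGs, the most abundant tested member of each role, a fixed list of epithelial and smooth muscle channels, the lowest adjusted p in roles without a DEG, members at the floor in 1 group only, and partner DEGs. Other genes past the adjusted p were added after their values were seen. Some genes that these rules name are not reported here. The members and lists were chosen with earlier results of these data known. Promoters are from RefSeq (GRCm38.p6). Replicate numbers did not pair the mice.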

Additional observations from a re-analysis of the deposited data

How the results depend on the processing

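Of the 26 channel genes that passed, 14 (among them Ano1, Kcnab1, Kcnip3, Kcnip4, Kcnk1, Kcnk16, Kcnk3, Kcnk5, Kcnn3, Kcnu1, Scn4a, Scnn1a and Scnn1b) kept their call under all 13 alternatives, and none of the 26 reversed. With limma on log2(FPKM + 1), 17 passed, 6 of them lowered, and 5 were DEGs, 3 raised and 2 lowered. Of all genes, 16.8% passed and 3.24% were DEGs in that fit. With limma on log2(FPKM + 0.1), 6 were lowered and 10 were DEGs, 6 of them raised and 4 lowered, beside 6.61% of all genes that were DEGs. Without a limit on the fold change there were 26 DEGs. With DESeq2 27 passed and 13 were DEGs, beside 20.7% and 7.61% of all genes. The calls of Ano7, Kcnj12 and Clcn6 were lost with DESeq2, Ano7 and Kcnj12 being DEGs by edgeR.

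Leaving out each mouse in turn gave 17 to 25 genes past the adjusted p, 11 to 15 raised and 5 to 10 lowered. DEGs numbered 12 to 18, 7 to 10 raised and 4 to 9 lowered. Of all genes, 12.2 to 17.2% passed and 6.13 to 7.25% were DEGs in these fits, beside 19.6% and 7.64% with all mice. The ratio of summed FPKM was 1.025 to 1.101 when a mouse was left out. That ratio was 0.936 without Kcnk1. Leaving out each mouse gave log2 fold changes of -0.031 to 0.15 for Kcnma1, -0.57 to 0.29 for Clca1, -0.64 to 0.39 for Kcne3 and -0.25 to 0.19 for Kcnmb1. These genes, which never passed, changed sign: Kcnma1 was at -0.00012 with total-count scaling, -0.031 without CON replicate 3 and -0.02 without T + E2 replicate 3, Clca1 at 0.29 without CON replicate 2 and 0.09 without T + E2 replicate 2, Kcne3 at 0.39 without CON replicate 2, and Kcnmb1 at 0.19 without CON replicate 2 and 0.05 without T + E2 replicate 2. The cause was not tested. Clcn3 passed with DESeq2 (adjusted p = 0.0289) and without T + E2 replicate 3 (edgeR adjusted p = 0.0434).

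Mice of the same replicate number did not deviate together (correlations of -0.0516, 0.0275 and 0.0463), and not every mouse correlated best with its own number. With the replicate number as a block, 18 passed, 12 raised and 6 lowered, and 12 were DEGs. In that fit 14% of all genes passed and 6.5% were DEGs. With 3 mice a group and low counts for most members, small differences in members with few reads could be missed.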

Other observations

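Within 100000 bases of the 15 channel DEGs lay 60 tested genes that are no channel genes, of which 8 rose (13.3%, beside 10.4% of all genes), 6 fell (10%, beside 9.25%) and 46 did not pass. Around Scn4a on chromosome 11, the B cell receptor subunit gene Cd79b, 3830 bases away, rose from 0.741 to 3.23 CPM (log2 fold change 2.12, edgeR adjusted p = 0.00565), Icam2 rose by 1.29 (edgeR adjusted p = 0.0136) and Ern1 by 0.64 (edgeR adjusted p = 0.0178), while Smarcd2 fell by 0.60 (edgeR adjusted p = 0.00447). Ssr3, 1432 bases from Kcnab1, rose by 1.32 on the log2 scale (edgeR adjusted p = 0.000369), close to the 1.21 of Kcnab1. The Kcnk3 gene shares 229 exon bases with Gm9899 on the opposite strand, whose own level did not pass (log2 fold change -0.06, edgeR adjusted p = 0.836).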
